A study of Litchi chinensis with 30 samples.

Results

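Litchi 'Feizixiao' bears functionally female and functionally male flowers on the same panicles, and the step from the closed bud to the opening flower was compared between them. Of the 30 whole-flower RNA-seq libraries of the study, 12 carried this comparison, namely 3 of female flowers at stage 3 (F3), 3 of female flowers at stage 4 (F4), 3 of male flowers at stage 3 (M3) and 3 of male flowers at stage 4 (M4). Stage 3 was the largest class of closed buds and stage 4 was the partly open flower ahead of full bloom at stage 5, all from a single cultivar with no treatment given, collected in the morning. The female flowers kept rudimentary stamens and the male flowers rudimentary pistils, and each library was made from whole flowers, so every value is an average over sepals, stamens, pistil and disc. The quantity described is the interaction, the log2 change from F3 to F4 minus the log2 change from M3 to M4, fitted to the read counts of 27854 tested genes out of 37234 in the table. A positive interaction means a more positive step in female flowers and a negative one a more positive step in male flowers. A gene was called when its false discovery rate (FDR, Benjamini-Hochberg) in edgeR's quasi-likelihood test was below 0.01 and its change was at least 2-fold. The members are the 2685 genes so called. Levels are given as FPKM, the fragment count scaled to transcript length and to the depth of the library.

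The opening of a flower is driven by rapid expansion of cells in the floral organs, for which walls are loosened by expansins, rebuilt by xyloglucan endotransglucosylase/hydrolases (XTH) and softened by pectin-degrading enzymes, while sugars and potassium are taken up as osmotically active solutes. In the male flower the stamens elongate and ripe pollen is released at this time. Earlier in the anther the tapetum, a nutritive cell layer, makes sporopollenin for the pollen wall and then degenerates. In the female flower the anthers stay closed, and the pistil, whose ovules form under the control of MADS-box genes of classes C, D and E, goes on growing into the young fruit. In the ABCDE model class A and E genes specify sepals, class A, B and E genes petals, class B, C and E genes stamens, class C and E genes carpels and class D and E genes ovules.

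The libraries of a group correlated at 0.973 to 0.982 in log2 CPM across tested genes, while F3 and M3 libraries correlated at 0.972 to 0.974, F4 and M4 libraries at 0.911 to 0.939, F3 and F4 libraries at 0.932 to 0.943 and M3 and M4 libraries at 0.892 to 0.918. Genes are not independent replicates, so these values carry no test. Total counts were 30370796 to 38075360 per library. TMM scaling factors were 1.04 to 1.06 in F3, 1.09 in F4, 0.99 to 1.02 in M3 and 0.93 to 0.94 in M4. Without them the median interaction of all tested genes moved from 0.00 to 0.15, so each step is measured against the typical tested gene. The stage 4 libraries were not alike within their groups. Among the 1213 genes described next that fell in male flowers only, M4-3 held the lowest of the 3 M4 values in 65.5% and M4-1 the highest in 57.2%, and F4-1 held the highest F4 value in 62.2%. Among 389 genes that rose in male flowers only, M4-3 held the highest M4 value in 65% and M4-1 the lowest in 62.7%. Nothing in the labels or methods places the replicates on separate trees, so the p-values measure the spread between these libraries only.

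The labels of the flowers were set against 3 short marker lists. Of 28 markers of mature pollen and pollen tubes, 26 were tested, and 21 to 23 reached 1 FPKM in the M4 libraries against 13 to 15 in the other 9. Their summed level was 574 to 579 FPKM in F3, 623 to 674 in F4, 561 to 658 in M3 and 596 to 691 in M4. The annotation words behind this list include the family names RALF and profilin, which do not mention pollen. The sum therefore need not measure pollen alone. A negative interaction was called for 8 of them and a positive one for 3, against 3.48% and 6.16% of all tested genes. The 9 tapetum markers summed to 422 to 613 FPKM in F3, 54.3 to 59.3 in F4, 210 to 292 in M3 and 48.0 to 91.8 in M4. Of the 8 tested, 1 was called with a positive and 1 with a negative interaction. The 6 carpel and ovule markers summed to 309 to 344 FPKM in F3, 425 to 455 in F4, 366 to 402 in M3 and 663 to 766 in M4, a sum set by *CRABS CLAW* (LITCHI005346.m1.gene), a carpel and nectary regulator, named here after its values were seen, which alone had 299, 261 and 281 FPKM in F3, 361, 391 and 373 in F4, 366, 325 and 334 in M3 and 732, 678 and 627 in M4. Its interaction was -0.73 ± 0.21 (SE, edgeR FDR 0.012) and was not called. The number of markers at 1 FPKM or more among these 6 was 5 or 6 in F3, 5 in F4 and M3 and 2 in M4. Of the 6, 3 were called with a positive and 0 with a negative interaction. Among all of these, 1 pollen marker and 1 tapetum marker had no count in any of the 12 libraries.

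The question was which genes take the opening step differently in female and male flowers. Of 27854 tested genes, 2685 (9.64%) were called in the interaction, 1716 (6.16%) with a positive and 969 (3.48%) with a negative value. The step itself was called for 3362 genes (12.1%) in female flowers, with 4.56% of the tested genes higher and 7.51% lower at stage 4, and for 5672 genes (20.4%) in male flowers, with 7.73% higher and 12.6% lower. Most positive interactions came from genes that fell as male flowers opened. In 1213 of the 1716 the male step was called as a fall and the female step was not called, with a median male step of -1.96 and a median female step of -0.06. A further 96 fell in both sexes and fell further in male flowers, 122 rose in female flowers only, 40 rose in female and fell in male flowers, 10 rose in both and in 235 neither step was called alone. The 969 negative interactions were divided more evenly. In 389 the gene rose in male flowers only (median male step 1.76, median female step 0.07), in 276 it fell in female flowers only (median female step -2.13, median male step 0.16), in 93 it rose in both, in 38 it fell in both, in 24 it fell in female and rose in male flowers, and in 149 neither step was called alone. In whole flowers fewer cells of a type and less RNA per cell cannot be told apart, so a fall may be either.

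**Figure D1:**
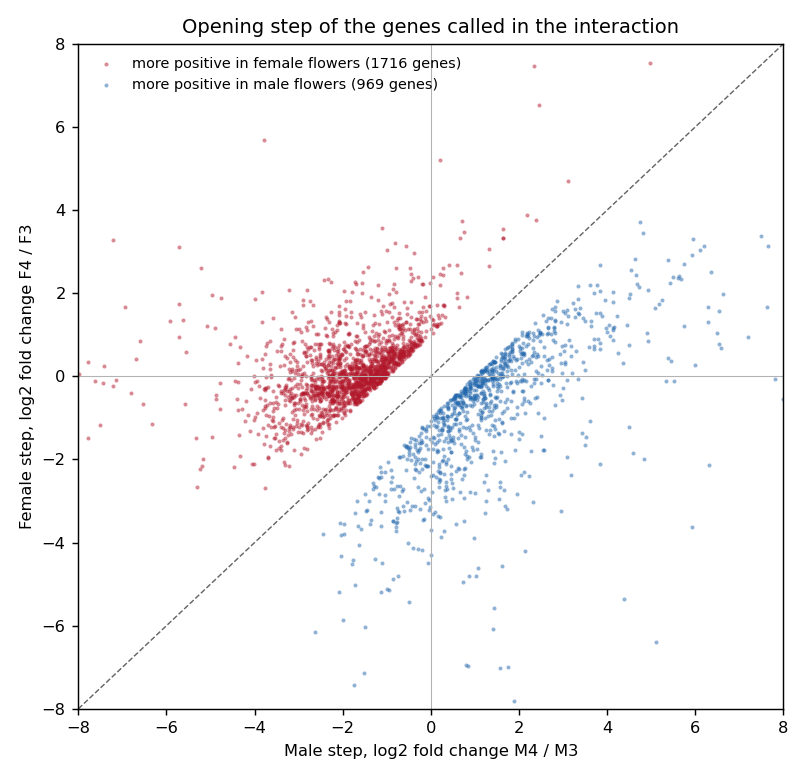
The female step (log2 fold change F4 / F3, vertical axis) is plotted against the male step (log2 fold change M4 / M3, horizontal axis) for genes called in the interaction; each point is 1 gene, the dashed line marks equal steps, and 35 of the 2685 genes lie beyond 8 on an axis and are not shown. The dense cloud to the left of the line near a female step of 0 holds the 1213 genes that fell in male flowers only.

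The share of positive interactions was 63.9% of the called genes, and 75% (2201 of 2933) with library-size scaling in place of TMM. The number of genes called lay between 2086 and 2655 with any 1 of the 12 libraries left out. The count of genes that fell in female flowers only rested in part on F4-1, and was 183 without that library. DESeq2 called 3465 genes in all.

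**Figure D2:**
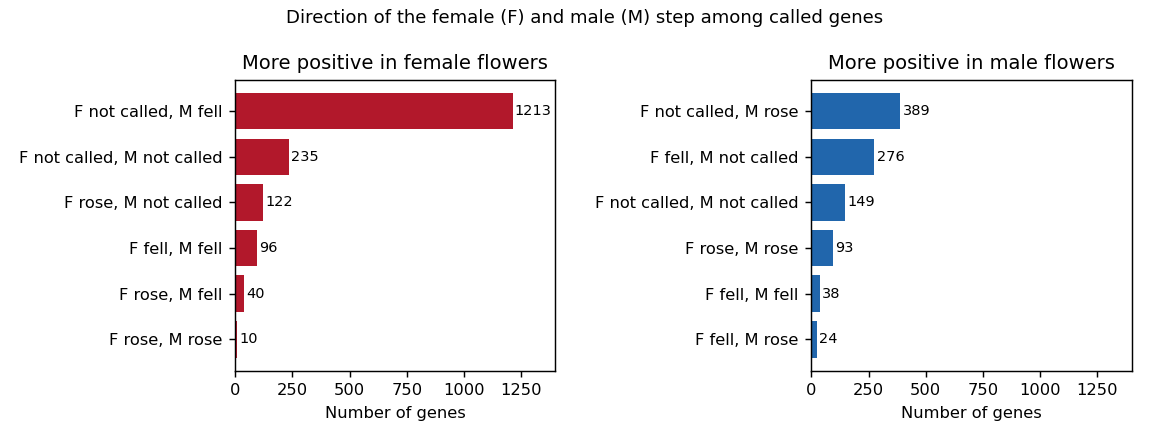
Bars give the number of called genes by the direction of the female step (F) and the male step (M), for the 1716 genes with a positive interaction on the left and the 969 with a negative one on the right; rose, fell and not called refer to the test of each step alone. Genes with a fall called in male flowers only form the longest bar on the left, with 1213 genes, and rises in male flowers the longest on the right, with 389.

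Female and male flowers differed at stage 3 in 212 of all tested genes (0.761%), a count that moved with the libraries and the tool. It was 114 without F3-2, 131 to 139 without any other F3 or M3 library, and 599 with DESeq2. Among the 212 were 31 of the 1716 genes with a positive interaction (12 higher and 19 lower in female flowers) and 42 of the 969 with a negative one (36 higher and 6 lower). The median log2 ratio of female to male level at stage 3 was 0.07 in the first group and 0.13 in the second. At stage 4, where 16.9% of all tested genes differed between the sexes (9.55% higher and 7.4% lower in female flowers), 1513 of the 1716 were called higher in female flowers and 778 of the 969 lower, with medians of 1.81 and -1.65. These stage 3 and stage 4 values enter the interaction itself and are a description. The F5 and M5 libraries of full bloom do not enter the contrast of the interaction, but they share the filter, scaling and spread of the fit. Of all tested genes 29.2% differed between them. There 1460 of the 1716 genes (85.1%) were called higher in female flowers and 6 lower, against 17.6% and 11.6% of all tested genes, and 676 of the 969 (69.8%) were called lower in female flowers and 13 higher. Median log2 ratios of female to male level at stage 5 were 2.45 and -1.64, and 0.03 over all tested genes.

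Of the photosynthesis genes, 25 fell in male flowers as these opened (51% of those tested, against 12.6% of all tested genes) and 7 in female flowers (14.3% against 7.51%). The list held 57 genes, of which 49 were tested. In the interaction 19 (38.8%) were called with a positive and 0 with a negative value, against 6.16% and 3.48% of all tested genes. At an unadjusted p under 0.05 edgeR gave 4 negative ones, and DESeq2 called 0. Its median interaction was 1.13, from a median female step of -0.19 and a median male step of -1.52. In 16 of the 19 the male step alone was called, as a fall. At stage 5, 31 of the 49 were called higher in female flowers and 2 lower, against 17.6% and 11.6% of all tested genes. The gene for chlorophyll a-b binding protein 4 (LITCHI021457.m1.gene), an antenna protein of photosystem I, had 59.6, 72.7 and 49.1 FPKM in F3, 56.4, 53 and 42.9 in F4, 103, 117 and 125 in M3 and 6.2, 6.95 and 5.92 in M4. The M4 values lay below all others and the F3 and F4 values overlapped, with an interaction of 3.77 ± 0.51 (SE, edgeR FDR 1.07e-05). Chlorophyll a-b binding protein 40 (LITCHI028856.m1.gene) of the photosystem II antenna had the highest interaction of the list at 5.29 ± 0.94 (SE, edgeR FDR 0.000246), from 8.11, 9.52 and 6.73 FPKM in F3, 52.7, 31 and 22.8 in F4, 26.6, 27.7 and 26.4 in M3 and 1.78, 2.37 and 3.87 in M4. Its 3 F4 libraries were spread over more than 2-fold, and its female step was not called. The minor antenna proteins CP26 (LITCHI012016.m1.gene) and CP29.2 (LITCHI018231.m1.gene) had male steps of -2.91 and -3.41 log2 units, with interactions of 2.50 ± 0.35 (SE, edgeR FDR 1.90e-05) and 3.01 ± 0.42 (SE, edgeR FDR 1.61e-05). The oxygen-evolving enhancer protein 1 (LITCHI006733.m1.gene), which stabilises the water-splitting site, fell in both sexes, from 83.9 ± 4.84 FPKM (SD, n = 3) to 36.5 ± 2.08 FPKM (SD, n = 3) in female and from 81.1 ± 7.69 FPKM (SD, n = 3) to 8.04 ± 2.22 FPKM (SD, n = 3) in male flowers. Photosystem I subunit O (LITCHI024395.m1.gene) had 20.6 ± 1.72 FPKM (SD, n = 3) in F4 and 4.58 ± 0.757 FPKM (SD, n = 3) in M4, with an interaction of 2.47 ± 0.45 (SE, edgeR FDR 0.000324). All but protein 40 were named after their values were seen.

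Of the genes of cell division, 79 fell in male flowers (39.3% of those tested, against 12.6% of all tested genes) and 12 in female flowers (5.97% against 7.51%). Of 201 tested genes (226 in the table), 60 (29.9%) were called with a positive interaction and 6 (2.99%) with a negative one. All tested genes had 6.16% and 3.48%. The median interaction of the list was 0.62. Of the 60, 56 fell in male flowers only. The count of 6 became 3 without F4-1. Positive calls included cyclins of the D type, which start the cell cycle. *Cyclin-D1-1* (LITCHI001437.m1.gene) had 4.41, 3.95 and 4.92 FPKM in F3, 14.4, 11.7 and 10.5 in F4, 6.48, 5.21 and 4.38 in M3 and 0.534, 0.523 and 0.676 in M4, with no overlap between any of these groups other than F3 and M3, and an interaction of 4.50 ± 0.46 (SE, edgeR FDR 3.33e-07). *Cyclin-D6-1* (LITCHI021141.m1.gene) rose by 1.15 log2 units in female flowers and had a male step of -2.99. *Cyclin-D3-1* (LITCHI001557.m1.gene) had 29.8 ± 4.6 FPKM (SD, n = 3) in F3, 61.1 ± 7.57 FPKM (SD, n = 3) in F4, 10.4 ± 1.39 FPKM (SD, n = 3) in M3 and 1.86 ± 0.406 FPKM (SD, n = 3) in M4, so F4 stood highest and M4 lowest, with an interaction of 3.37 ± 0.38 (SE, edgeR FDR 1.10e-06). The DNA replication factor *MCM5* (LITCHI016282.m1.gene), part of the replicative helicase, had 19.6, 23.1 and 18.6 FPKM in F3, 28.6, 24.4 and 23.1 in F4, 20.3, 16.3 and 12.9 in M3 and 2, 1.82 and 1.74 in M4. All M4 values were below those of every other library, with an interaction of 3.31 ± 0.44 (SE, edgeR FDR 9.64e-06). The mitotic kinase *CDKB2-2* (LITCHI009863.m1.gene) went from 63.5 ± 6.36 FPKM (SD, n = 3) to 11.8 ± 2.74 FPKM (SD, n = 3) in male flowers and from 72.8 ± 3.02 FPKM (SD, n = 3) to 54.4 ± 1.91 FPKM (SD, n = 3) in female flowers, and *Cyclin-B1-4* (LITCHI023797.m1.gene) had an interaction of 2.10 ± 0.28 (SE, edgeR FDR 9.08e-06). The sliding clamp of DNA polymerase, *PCNA* (LITCHI025044.m1.gene), fell less, by 1.08 log2 units in male flowers. Kinesins, the microtubule motors, made up 78 of the tested genes, counted after their values were seen, and 26 of them were called with a positive and 2 with a negative interaction. The 2 were *KIN-14I* (LITCHI004203.m1.gene), which rose from 1.88 ± 0.223 FPKM (SD, n = 3) to 6.88 ± 1.59 FPKM (SD, n = 3) in male flowers, and *KIN-14P* (LITCHI023188.m1.gene, 1 of 2 entries of its locus), which had an interaction of -3.03 ± 0.72 (SE, edgeR FDR 0.00312), a call lost without F3-1 or F4-1. *Cyclin-D3-1*, *MCM5*, *CDKB2-2*, *Cyclin-B1-4*, *PCNA* and *KIN-14I* were named after their values were seen.

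Of the core histones, many of which are made in step with DNA replication, 16 fell in male flowers (44.4%, against 12.6% of all tested genes). Of 36 tested histone genes (44 in the table), 14 (38.9%) were called with a positive interaction and 0 with a negative one. The shares of all tested genes were 6.16% and 3.48%. At an unadjusted p under 0.05 edgeR gave 1 negative one, and DESeq2 called 0. The histones differed before the step as well, since 8 of the 36 (22.2%) were called higher in female flowers at stage 3, against 0.348% of all tested genes, with a median log2 ratio of female to male level of 0.81. All 14 fell in male flowers only, and the median female step was -0.11 and the median male step -0.73. At stage 5, 20 of the 36 were called higher in female flowers and 0 lower, against 17.6% and 11.6% of all tested genes. A histone H2A variant (LITCHI026149.m1.gene) had 124, 134 and 114 FPKM in F3, 113, 96.4 and 102 in F4, 88.3, 83.3 and 84.5 in M3 and 18.5, 14.5 and 11.1 in M4, and the M4 libraries lay far below the rest, with an interaction of 2.13 ± 0.25 (SE, edgeR FDR 2.58e-06). Histone H3.2 (LITCHI007255.m1.gene) had 110 ± 19.2 FPKM (SD, n = 3) in F4 and 10.2 ± 4.79 FPKM (SD, n = 3) in M4 and an interaction of 2.13 ± 0.39 (SE, edgeR FDR 0.000304), and a histone H4 gene (LITCHI016378.m1.gene) 59.2 ± 3.05 FPKM (SD, n = 3) and 6.44 ± 1.91 FPKM (SD, n = 3). Histone genes of 1 class are near-identical copies, so reads may have been split between them. Few genes of cytosolic ribosomal proteins reached the call. Of 193 tested, 4 were called with a positive interaction (1 without F4-1, 2 without M3-1, M4-2 or M4-3), a share of 2.07% that is below the 6.16% of all tested genes, although their median interaction was 0.42. With library-size scaling 8 were called. At an unadjusted p under 0.05 edgeR gave 112 positive and 4 negative ones among the 193. The median female step of this list was 0.42 and the median male step 0.01, a shift under the 2-fold limit of a call. The H2A variant and histone H4 were named after their values were seen.

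**Figure D3:**
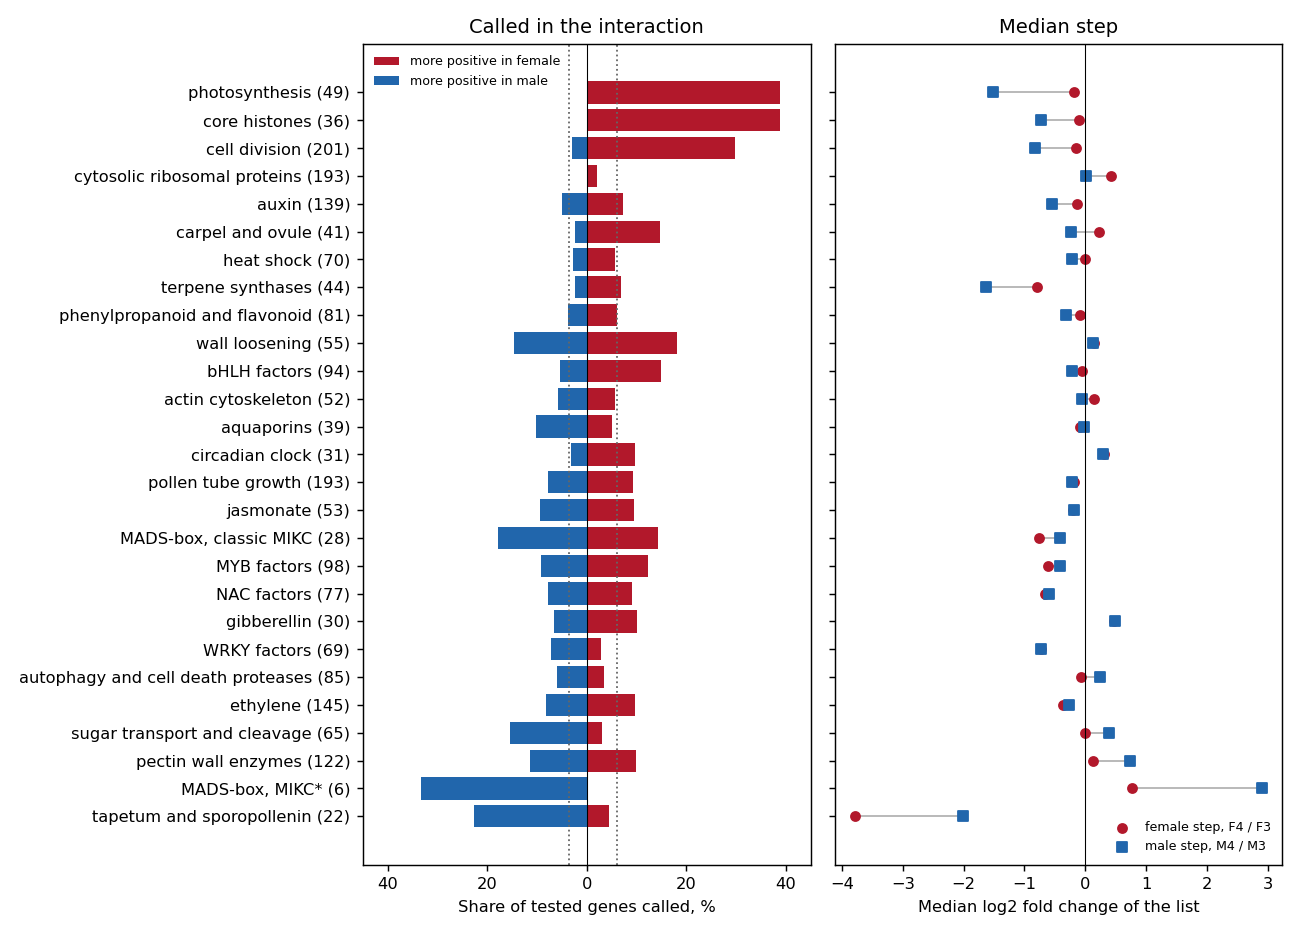
The left panel gives the share of the tested genes of each list that were called in the interaction, to the right for a positive and to the left for a negative value, with dotted lines at the shares of all tested genes (6.16% and 3.48%); the number of tested genes stands in brackets. The right panel gives the median log2 fold change of each list in the female (circles) and male step (squares), and photosynthesis, with medians of -0.19 and -1.52, and tapetum genes, with -3.79 and -2.01, lie far apart.

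Genes that loosen and remodel walls were called in both directions. Of 55 tested genes for expansins and XTH, 10 (18.2%) had a positive and 8 (14.5%) a negative interaction, with a median of 0.14. All tested genes had 6.16% and 3.48%. Counted by family after their values were seen, the 29 expansins gave 1 positive and 7 negative calls and the 26 XTH genes 9 and 1. With library-size scaling the expansins gave 4 and 6 and the XTH genes 11 and 1, and a difference between the families was not tested. The expansin *EXPA8* (LITCHI027598.m1.gene), which slides wall polymers past each other, had 71.6, 57 and 54.7 FPKM in F3, 45.6, 50.7 and 53.8 in F4, 131, 83.6 and 82.7 in M3 and 366, 387 and 390 in M4. The M4 libraries stood above all others, the F3 and F4 values were close together, and the interaction was -2.39 ± 0.57 (SE, edgeR FDR 0.00324). A further gene annotated as *EXPA8* (LITCHI031086.m1.gene) rose in both sexes, from 8.71 ± 1.22 FPKM (SD, n = 3) to 18.7 ± 1.88 FPKM (SD, n = 3) in female and from 18.7 ± 2.01 FPKM (SD, n = 3) to 122 ± 8.76 FPKM (SD, n = 3) in male flowers. *EXPB3* (LITCHI021068.m1.gene) had 47.6 ± 4 FPKM (SD, n = 3) in F4 and 148 ± 18.6 FPKM (SD, n = 3) in M4, with an interaction of -1.38 ± 0.13 (SE, edgeR FDR 1.49e-07). *EXPA1* (LITCHI005194.m1.gene), with an interaction of -1.12 ± 0.18 (SE, edgeR FDR 8.65e-05), lost its call under library-size scaling and on the log2 FPKM scale. The enzymes of the XTH family cut and rejoin xyloglucan. The XTH LITCHI021181.m1.gene had 233, 284 and 239 FPKM in F3, 340, 322 and 333 in F4, 173, 209 and 211 in M3 and 47.6, 37.5 and 29.8 in M4, the lowest 3 values being those of M4, and an interaction of 2.61 ± 0.24 (SE, edgeR FDR 1.02e-07). The XTH LITCHI015705.m1.gene rose in female flowers alone, with 15.7, 16.2 and 17.6 FPKM in F3, 111, 114 and 105 in F4, 14.3, 13.4 and 14.2 in M3 and 15.4, 18.9 and 23.9 in M4 and an interaction of 2.10 ± 0.27 (SE, edgeR FDR 6.93e-06). The XTH LITCHI016355.m1.gene fell in both sexes, with log2 steps of -1.38 in female and -3.93 in male flowers. Of these genes *EXPA8* LITCHI027598.m1.gene was named by rule and the others after their values were seen.

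Of the genes for pectin enzymes 47 rose in male flowers (38.5% of those tested, against 7.73% of all tested genes) and 29 in female flowers (23.8% against 4.56%). Of 122 tested genes (186 in the table), 14 (11.5%) were called with a negative and 12 (9.84%) with a positive interaction. All tested genes had 3.48% and 6.16%. The median was -0.56 (-0.67 with genes that had a group without counts set to the limit of 3 counts per group). DESeq2 gave 25 negative and 14 positive calls, and limma-trend 26 and 14 on the log2(FPKM + 1) scale and 29 and 15 on the log2(FPKM + 0.1) scale. With library-size scaling 12 negative and 12 positive genes were called. With 1 library left out the calls were 10 to 16 negative and 8 to 10 positive. The median step was 0.13 in female and 0.74 in male flowers. A polygalacturonase (LITCHI004398.m1.gene), which cleaves demethylated pectin, had 0.74, 1.19 and 1.06 FPKM in F3, 0.311, 0.248 and 0.116 in F4, 0.268, 0.825 and 0.542 in M3 and 42.4, 43.5 and 38 in M4. It fell in female and rose in male flowers, with an interaction of -8.46 ± 0.68 (SE, edgeR FDR 1.67e-08). The pectate lyase LITCHI025887.m1.gene rose in both sexes, with 0.458, 0.169 and 0.17 FPKM in F3, 1.19, 1.79 and 1.47 in F4, 0.668, 0.534 and 0.617 in M3 and 19.9, 26.5 and 30.6 in M4 and an interaction of -3.12 ± 0.58 (SE, edgeR FDR 0.000391). The M4 values exceeded those of F4 more than 10-fold, while F3 and M3 stayed below 1 FPKM. The pectate lyase LITCHI015122.m1.gene was expressed in all groups and went from 23.1 ± 0.422 FPKM (SD, n = 3) to 49.5 ± 5.59 FPKM (SD, n = 3) in female and from 24.3 ± 1.28 FPKM (SD, n = 3) to 125 ± 19.4 FPKM (SD, n = 3) in male flowers. The polygalacturonase LITCHI015579.m1.gene reached 39.7 ± 14.6 FPKM (SD, n = 3) in M4 against 2.33 ± 1.29 FPKM (SD, n = 3) in F4, but its call was lost without F3-1 and in a fit of the 12 libraries alone. On the other side a pectinesterase with an inhibitor domain (LITCHI026479.m1.gene) had 15.1, 14.2 and 12.4 FPKM in F3, 12.3, 12.5 and 12.2 in F4, 13.9, 14.2 and 12.8 in M3 and 0.893, 1.08 and 0.565 in M4, and the pectinesterase LITCHI022790.m1.gene had 28.5 ± 4.8 FPKM (SD, n = 3) in F4 and 1.33 ± 0.369 FPKM (SD, n = 3) in M4. Only the M4 libraries were low in both, with interactions of 3.68 ± 0.49 (SE, edgeR FDR 9.97e-06) and 3.34 ± 0.35 (SE, edgeR FDR 5.17e-07). A pectinesterase inhibitor (LITCHI005829.m1.gene) rose in female flowers alone, from 5.19 ± 0.233 FPKM (SD, n = 3) to 25.3 ± 3.12 FPKM (SD, n = 3), with an interaction of 2.42 ± 0.27 (SE, edgeR FDR 1.17e-06). LITCHI004398.m1.gene and LITCHI026479.m1.gene were named by rule and the other genes after their values were seen.

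**Figure D4:**
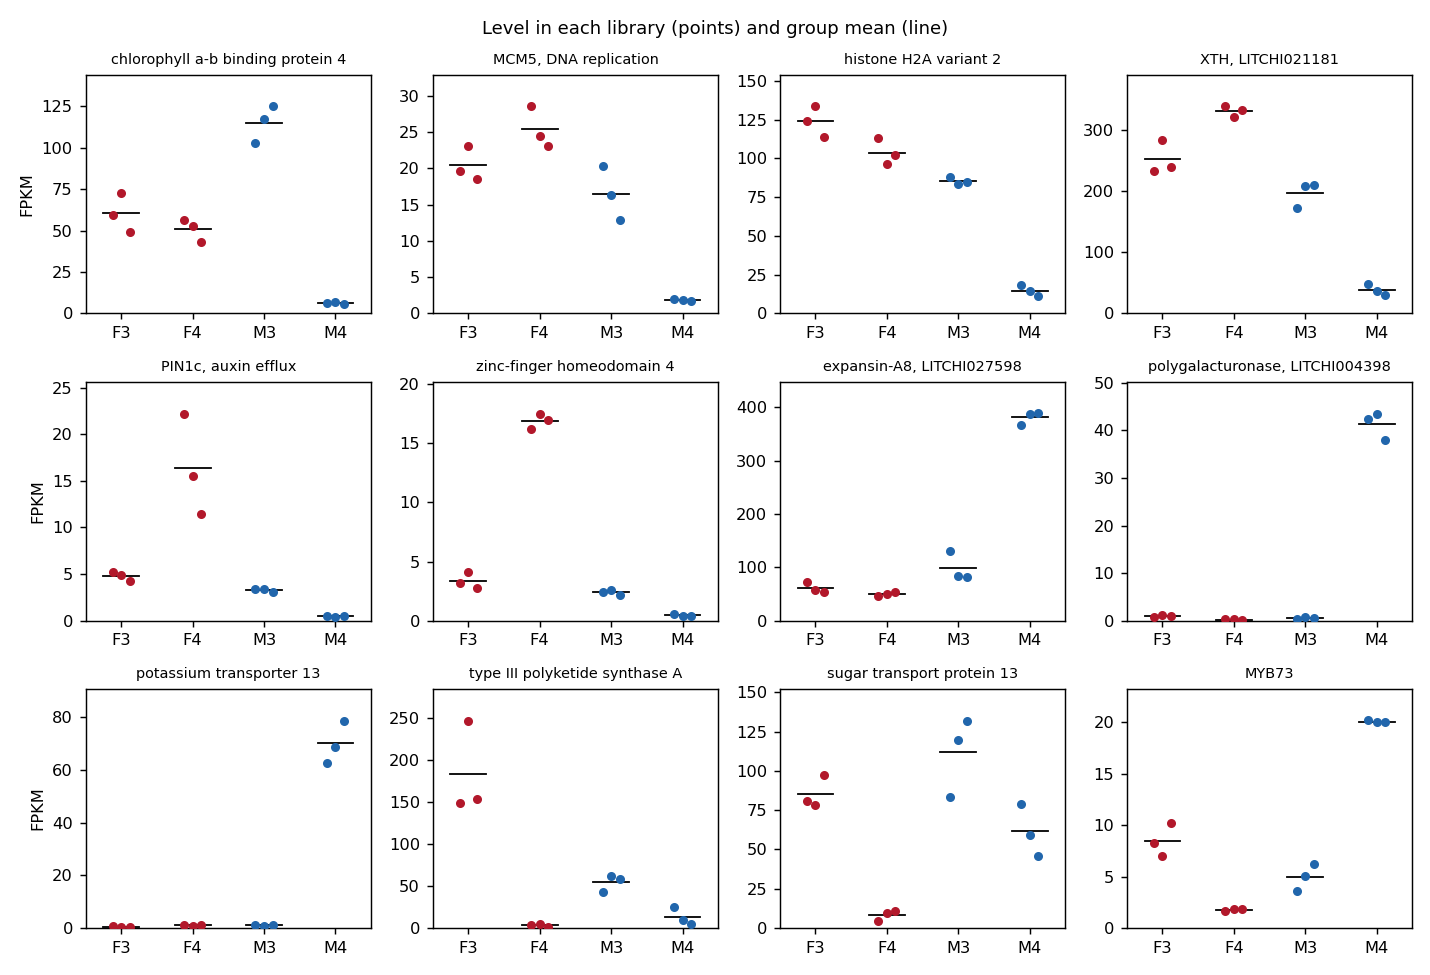
Points give the level in FPKM of 12 genes in each library of F3, F4 (red), M3 and M4 (blue), with 3 libraries per group, and lines the group means; each panel has its own linear axis from 0. The upper row and PIN1c show genes that are lowest in M4, expansin-A8, polygalacturonase, potassium transporter 13 and MYB73 are highest in M4, and polyketide synthase A and sugar transport protein 13 are lowest in F4.

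Transcripts of some solute transporters rose in male flowers. The potassium transporter LITCHI009724.m1.gene had 0.577, 0.253 and 0.253 FPKM in F3, 1.02, 0.875 and 0.92 in F4, 1.03, 0.91 and 0.927 in M3 and 62.7, 68.9 and 78.6 in M4. It was near 1 FPKM or below in all libraries but the 3 of M4, and its interaction was -4.98 ± 0.55 (SE, edgeR FDR 1.09e-06). Of 65 tested genes of sugar transport and cleavage, 10 (15.4%) had a negative and 2 (3.08%) a positive interaction, with a median of -0.47. All tested genes had 3.48% and 6.16%. At stage 5, 22 of the 65 were called lower and 7 higher in female flowers, against 11.6% and 17.6% of all tested genes. The sucrose transporter *SUC1* (LITCHI011600.m1.gene), which loads sucrose into cells with protons, had 58, 58.3 and 63.7 FPKM in F3, 38.5, 44.3 and 47.9 in F4, 58.3, 73.8 and 65.8 in M3 and 138, 144 and 146 in M4 and an interaction of -1.73 ± 0.22 (SE, edgeR FDR 6.10e-06), and *SUC2* (LITCHI011601.m1.gene) had -1.96 ± 0.21 (SE, edgeR FDR 5.87e-07). In both the M4 values lay above, and the F4 values below, those of the other groups. The monosaccharide transporter *MST3* (LITCHI006197.m1.gene) rose in both sexes, to 2.88 ± 0.796 FPKM (SD, n = 3) in F4 and 27.1 ± 2.35 FPKM (SD, n = 3) in M4. Sugar transport protein 13 (LITCHI014765.m1.gene) and the neutral invertase LITCHI014297.m1.gene, which splits sucrose, reached their negative interactions of -2.66 ± 0.52 (SE, edgeR FDR 0.000579) and -1.59 ± 0.30 (SE, edgeR FDR 0.000447) through a fall in female flowers. The first had 81.1, 78 and 97.4 FPKM in F3, 4.5, 9.51 and 10.7 in F4, 83.4, 120 and 132 in M3 and 79.1, 59.5 and 45.9 in M4, and the F4 libraries stood apart from the rest. *Sucrose synthase 2* (LITCHI014453.m1.gene) was on the positive side, with falls in both sexes (log2 steps of -1.04 in female and -2.36 in male flowers). Aquaporins were divided, with 4 of 39 tested genes called negative (10.3%) and 2 positive (5.13%). *TIP4-1* (LITCHI017169.m1.gene), a water channel of the vacuole, had 29.1 ± 2.48 FPKM (SD, n = 3) in F4 and 6.05 ± 0.52 FPKM (SD, n = 3) in M4, and *TIP5-1* (LITCHI009087.m1.gene), known from pollen of Arabidopsis, fell in female flowers from 17.5 ± 4.27 FPKM (SD, n = 3) to 1.6 ± 0.586 FPKM (SD, n = 3). The genes of sucrose and hexose transport and the invertase were named after their values were seen.

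Genes of pollen and pollen tube growth gave a mixed list. Of 193 tested, 18 (9.33%) were called with a positive and 15 (7.77%) with a negative interaction, against 6.16% and 3.48% of all tested genes. The count of 15 was 7 without F3-1, 9 without F4-1 and 9 without M3-2. Positive and negative calls numbered 19 and 24 with DESeq2, 24 and 28 on the log2(FPKM + 0.1) scale of limma-trend, and 26 and 11 with library-size scaling. Its median was -0.13, and 0.02 with library-size scaling. Of the 15 with a negative value 11 rose in male flowers only, and of the 18 with a positive value 15 fell in male flowers only. The pollen-specific leucine-rich repeat extensin LITCHI001697.m1.gene, a wall protein of the pollen tube, had 0.0356, 0.0168 and 0.0159 FPKM in F3, 0.102, 0.0901 and 0.114 in F4, 0, 0.0328 and 0 in M3 and 1.46, 4.08 and 4.26 in M4 and an interaction of -5.94 ± 1.33 (SE, edgeR FDR 0.00198), which was not called without F3-1. The callose synthase *CALS5* (LITCHI007453.m1.gene), which builds the callose of the pollen wall and tube, had 0.396, 0.18 and 0.242 FPKM in F3, 0.631, 0.674 and 0.616 in F4, 0.254, 0.28 and 0.29 in M3 and 3.19, 5.05 and 5.48 in M4. Its female and male steps were both rises, and M4 exceeded F4 in every library, with an interaction of -2.97 ± 0.46 (SE, edgeR FDR 5.79e-05). *Pollen receptor-like kinase 3* (LITCHI017502.m1.gene) had 0.609 ± 0.131 FPKM (SD, n = 3) in F4 and 5.04 ± 2.08 FPKM (SD, n = 3) in M4. *Profilin-3* (LITCHI017710.m1.gene), an actin-binding protein, rose in male flowers from 6.47 ± 1.55 FPKM (SD, n = 3) to 46.4 ± 2.89 FPKM (SD, n = 3) and had 10.9 ± 2.76 FPKM (SD, n = 3) in F4, with an interaction of -2.63 ± 0.38 (SE, edgeR FDR 2.57e-05). The interaction measures the size of the steps and not the level reached. The receptor kinase *ANXUR1* (LITCHI003619.m1.gene), which keeps the growing pollen tube intact, had 0.0217, 0 and 0 FPKM in F3, 0.391, 0.507 and 0.411 in F4, 0.0793, 0.0382 and 0.101 in M3 and 4.09, 6.24 and 7.72 in M4, rose in both sexes, and was not called, with an interaction of -0.99 ± 1.70 (SE, edgeR FDR 0.73). *Profilin-3* was named by rule and the other genes after their values were seen.

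Genes of the tapetum fell in both sexes, and some of them fell further in female flowers. Of 22 tested genes, 18 fell in female (81.8%, against 7.51% of all tested genes) and 10 in male flowers (45.5% against 12.6%). A negative interaction was called for 5 (22.7% against 3.48%), or 10 without M4-3 or with DESeq2. A positive one was called for 1 (4.55% against 6.16%). The median interaction was -2.90, from median steps of -3.79 and -2.01. At stage 3, 3 of the 22 were already called higher in female flowers (13.6%, against 0.348% of all tested genes). *Polyketide synthase A* (LITCHI025403.m1.gene), an enzyme of sporopollenin synthesis, had 149, 246 and 153 FPKM in F3, 3.72, 4.85 and 1.17 in F4, 42.3, 62.1 and 58 in M3 and 24.6, 9.49 and 4.27 in M4. F3 stood highest, the F4 and M4 ranges met, and the interaction of -3.87 ± 0.89 (SE, edgeR FDR 0.0025) was not called without M4-1. *Tetraketide alpha-pyrone reductase 1* (LITCHI002216.m1.gene), the next enzyme of that pathway, had 46.4, 74.4 and 46.2 FPKM in F3, 2.68, 2.47 and 2.48 in F4, 13.9, 17.9 and 15.9 in M3 and 10.4, 5.89 and 4.3 in M4 and an interaction of -3.38 ± 0.47 (SE, edgeR FDR 1.55e-05). Its 3 F4 values were below all others, while the M3 values lay between F3 and M4. The tapetum regulators *MYB35* (LITCHI022244.m1.gene) and *MYB80* (LITCHI013621.m1.gene) fell in female flowers with interactions of -4.96 ± 1.08 (SE, edgeR FDR 0.0016) and -3.19 ± 0.36 (SE, edgeR FDR 1.09e-06). *MYB35* had 10.2 ± 3.96 FPKM (SD, n = 3) in F3 and 1.28 ± 0.449 FPKM (SD, n = 3) in M3, a log2 ratio of 2.93 (edgeR FDR 0.0204) that was not called at stage 3. The cytochrome P450 gene *CYP703A2* (LITCHI026872.m1.gene), which hydroxylates lauric acid for sporopollenin, fell in both sexes, to 3.99 ± 0.137 FPKM (SD, n = 3) in F4 and 4.11 ± 2.19 FPKM (SD, n = 3) in M4, with an interaction of -0.59 ± 0.64 (SE, edgeR FDR 0.555) that was not called. *ABORTED MICROSPORES* (LITCHI004937.m1.gene), a bHLH regulator of the tapetum in Arabidopsis, was the member on the positive side, with 0.84, 0.636 and 0.586 FPKM in F3, 1.85, 1.73 and 1.44 in F4, 0.995, 1.04 and 0.951 in M3 and 0.402, 0.0744 and 0.133 in M4 and an interaction of 3.37 ± 0.64 (SE, edgeR FDR 0.00046). *MYB35* was named by rule and the other genes after their values were seen.

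A group of regulatory and metabolic genes fell in female flowers and stayed or rose in male flowers. The cytochrome P450 gene LITCHI005357.m1.gene had 27.8, 20.3 and 33.7 FPKM in F3, 1.54, 3.23 and 4.9 in F4, 17.4, 16.1 and 18.9 in M3 and 58, 49.2 and 48.8 in M4, and its F4 values lay below those of all other libraries, with an interaction of -4.80 ± 1.02 (SE, edgeR FDR 0.00127). The membrane protein gene *DMP2* (LITCHI014625.m1.gene) had 62.2, 46.7 and 69 FPKM in F3, 7.45, 10.3 and 9.86 in F4, 29.6, 25.9 and 29.5 in M3 and 105, 82.9 and 61.7 in M4, again lowest in F4, and an interaction of -4.39 ± 0.79 (SE, edgeR FDR 0.000276). The auxin-conjugating enzyme *GH3.6* (LITCHI013323.m1.gene), which lowers free auxin, had 68, 52.4 and 75.9 FPKM in F3, 7.55, 8.3 and 9.72 in F4, 20.3, 27.5 and 31.4 in M3 and 62.5, 58.9 and 53.6 in M4. It was low in F4 alone and its interaction was -4.24 ± 0.92 (SE, edgeR FDR 0.00155). *NAC21/22* (LITCHI026019.m1.gene), a transcription factor of auxin signalling in Arabidopsis roots, fell from 40.9 ± 6.54 FPKM (SD, n = 3) to 2.89 ± 1.42 FPKM (SD, n = 3) in female flowers and had 10.7 ± 0.513 FPKM (SD, n = 3) and 11.6 ± 0.306 FPKM (SD, n = 3) in male flowers. The sulfite exporter family gene LITCHI030600.m1.gene had log2 steps of -1.76 in female and 2.56 in male flowers. *WRKY75* (LITCHI020315.m1.gene), a regulator of senescence and phosphate starvation in Arabidopsis, had an interaction of -4.23 ± 1.07 (SE, edgeR FDR 0.00509) that was not called without F3-1, F3-3, F4-1, F4-2, M3-1 or M3-2. The receptor kinase gene Litchi_chinensis_newGene_1518 had -4.23 ± 1.05 (SE, edgeR FDR 0.00455) and lost its call without F3-3, F4-1, F4-2, M3-2 or M3-3. All of these were named by rule.

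Genes that rose in female flowers and fell in male flowers numbered 40, and 24 did the reverse. The zinc-finger homeodomain factor *ZHD4* (LITCHI007324.m1.gene) had 3.2, 4.15 and 2.72 FPKM in F3, 16.2, 17.5 and 17 in F4, 2.39, 2.61 and 2.19 in M3 and 0.583, 0.362 and 0.437 in M4. The F4 values were the highest and the M4 values the lowest, with an interaction of 4.54 ± 0.58 (SE, edgeR FDR 5.52e-06). The extracellular ribonuclease *RNS1* (LITCHI002860.m1.gene) had 12.9, 10.5 and 12.9 FPKM in F3, 40.5, 44.7 and 38.1 in F4, 4.03, 3.31 and 3.31 in M3 and 0.87, 0.261 and 0.215 in M4. F4 stood highest and M4 lowest, with F3 above M3, and the interaction was 4.60 ± 0.47 (SE, edgeR FDR 3.33e-07). The transporter *ABCG14* (LITCHI017852.m1.gene), which moves cytokinin in Arabidopsis, went from 2.98 ± 0.276 FPKM (SD, n = 3) to 10.9 ± 0.88 FPKM (SD, n = 3) in female flowers and from 4.58 ± 1.81 FPKM (SD, n = 3) to 1.11 ± 0.28 FPKM (SD, n = 3) in male flowers, with an interaction of 3.75 ± 0.41 (SE, edgeR FDR 1.02e-06). In the reverse direction *MYB73* (LITCHI001536.m1.gene) had 8.27, 6.99 and 10.2 FPKM in F3, 1.69, 1.82 and 1.82 in F4, 3.61, 5.03 and 6.2 in M3 and 20.2, 20 and 20 in M4. The F4 values were the lowest and the M4 values the highest, and the interaction was -4.43 ± 0.66 (SE, edgeR FDR 3.36e-05). The exopolygalacturonase LITCHI014448.m1.gene and the cellulose synthase-like gene *CSLD1* (LITCHI015089.m1.gene), whose Arabidopsis counterpart acts in pollen tubes, reached 3.98 ± 0.877 FPKM (SD, n = 3) and 4.22 ± 1.61 FPKM (SD, n = 3) in M4 and 0.245 ± 0.124 FPKM (SD, n = 3) and 0.248 ± 0.0901 FPKM (SD, n = 3) in F4. Their interactions were -5.35 ± 0.90 (SE, edgeR FDR 0.000133) and -4.61 ± 0.62 (SE, edgeR FDR 1.10e-05). Several genes named by rule for the size of a positive interaction had a fall in male flowers beside a rise in F4 that was not called. The antimicrobial peptide gene *Snakin-1* (Litchi_chinensis_newGene_3377) had 4.52 ± 0.53 (SE, edgeR FDR 2.21e-06), the thaumatin-like gene LITCHI023086.m1.gene 4.30 ± 0.46 (SE, edgeR FDR 6.59e-07) and the organ growth regulator *GRF1* (LITCHI007106.m1.gene) 4.16 ± 0.52 (SE, edgeR FDR 4.16e-06). *GRF1* had 13 ± 0.876 FPKM (SD, n = 3) in F4 and 0.389 ± 0.155 FPKM (SD, n = 3) in M4.

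Auxin genes were called in both directions. Of 139 tested, 10 were positive (7.19%, against 6.16% of all tested genes) and 7 negative (5.04% against 3.48%), with a median of 0.30. On the log2(FPKM + 0.1) scale of limma-trend 18 and 11 were called. The efflux carrier *PIN1c* (LITCHI008622.m1.gene), which exports auxin from cells, had 5.25, 4.95 and 4.23 FPKM in F3, 22.2, 15.5 and 11.4 in F4, 3.41, 3.44 and 3.04 in M3 and 0.543, 0.413 and 0.459 in M4. Its female step was a rise and its male step a fall, with an interaction of 4.39 ± 0.48 (SE, edgeR FDR 9.87e-07). The influx carrier auxin transporter-like protein 5 (LITCHI002002.m1.gene) had 5.83, 6.69 and 5.2 FPKM in F3, 21.5, 19 and 13.4 in F4, 4.99, 5.67 and 4.86 in M3 and 0.76, 0.572 and 0.289 in M4 and the same pattern, with an interaction of 4.70 ± 0.54 (SE, edgeR FDR 1.45e-06). The efflux carrier *PIN3* (LITCHI005763.m1.gene) went the other way, to 31 ± 1.22 FPKM (SD, n = 3) in F4 and 67.9 ± 11.4 FPKM (SD, n = 3) in M4, a call lost with a pseudocount of 1 on the log2 FPKM scale. Of a pair of genes for auxin synthesis, *YUCCA6* (LITCHI017116.m1.gene) rose in female flowers from 0.909 ± 0.145 FPKM (SD, n = 3) to 5.22 ± 0.544 FPKM (SD, n = 3), a call lost without M3-1, and *YUCCA2* (LITCHI006663.m1.gene) fell in female and rose in male flowers, with 0.313, 0.213 and 0.166 FPKM in F3, 0.0778, 0 and 0.0459 in F4, 0.378, 0.203 and 0.15 in M3 and 0.971, 2.07 and 3.12 in M4 and an interaction of -5.56 ± 0.89 (SE, edgeR FDR 7.94e-05). *PIN3* and both *YUCCA* genes were named after their values were seen.

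Other hormone lists were also divided. Of 30 tested gibberellin genes, 3 were positive and 2 negative (10% and 6.67%, against 6.16% and 3.48% of all tested genes). The 2 became 1 without F3-2, F4-1, F4-2, M3-1, M3-3 or M4-3, and the 3 became 1 with the stricter filter and 5 with library-size scaling. The receptor *GID1C* (LITCHI007943.m1.gene) rose in female and fell in male flowers, with 2.14, 2.69 and 2.07 FPKM in F3, 5.75, 5.48 and 4.45 in F4, 5.2, 2.68 and 3.19 in M3 and 0.36, 0.485 and 0.51 in M4 and an interaction of 3.95 ± 0.45 (SE, edgeR FDR 1.34e-06). The M4 libraries lay below the rest. The biosynthetic *GA3OX1* (LITCHI017070.m1.gene), which makes active gibberellin, rose in male flowers, with 4.83, 4.08 and 5.24 FPKM in F3, 2.2, 1.07 and 2.11 in F4, 1.19, 2.32 and 1.84 in M3 and 9.17, 8.43 and 10.6 in M4 and an interaction of -3.94 ± 0.75 (SE, edgeR FDR 0.000437), and its M4 values were above all others. Of 53 tested jasmonate genes, 5 were positive (9 with library-size scaling) and 5 negative (8 with DESeq2), each 9.43% of the list. *Allene oxide synthase 3* (LITCHI001739.m1.gene), an early enzyme of the pathway, fell in female and rose in male flowers, with 1.34, 1.01 and 1.22 FPKM in F3, 0.269, 0.348 and 0.279 in F4, 1.8, 1.53 and 1.97 in M3 and 2.86, 5.69 and 7.2 in M4 and an interaction of -3.71 ± 0.50 (SE, edgeR FDR 1.17e-05). The lipoxygenase *LOX3-1* (LITCHI030220.m1.gene) fell in both sexes, with log2 steps of -2.63 in female and -1.30 in male flowers, and the phospholipase LITCHI020912.m1.gene fell in male flowers alone, with an interaction of 2.13 ± 0.15 (SE, edgeR FDR 4.78e-09). Of 145 tested ethylene genes, 14 were positive (9.66%) and 12 negative (8.28%). The latter count was 7 without F3-1, 5 without F4-1, 7 without F4-2, 6 without M3-1 and 7 without M3-2. The counts were 22 and 8 with library-size scaling and 19 and 18 with DESeq2. The AP2-like factor LITCHI010784.m1.gene of this list had 14.8 ± 1.69 FPKM (SD, n = 3) in F4 and 0.764 ± 0.295 FPKM (SD, n = 3) in M4, with an interaction of 3.68 ± 0.37 (SE, edgeR FDR 3.33e-07). *GID1C* and *LOX3-1* were named after their values were seen.

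MADS-box genes were those that the authors identified in the litchi genome, and *LcMADS51* and *LcMADS91* were matched through the primer list supplied with the study. Of 96 identifiers used here, 95 were found among the genes of the count data, and 43 were tested. Of these, 4 were positive (9.3%) and 7 negative (16.3%), against 6.16% and 3.48% of all tested genes. With library-size scaling 4 positive and 4 negative genes were called. The classic MIKC genes gave 4 positive and 5 negative calls among 28, the MIKC* genes 0 and 2 among 6 and the type I genes 0 and 0 among 9. For the MIKC* genes edgeR gave 0 positive values at an unadjusted p under 0.05 and DESeq2 called 0, and for the type I genes edgeR gave 2 positive and 0 negative ones and DESeq2 called 0. On the log2(FPKM + 1) scale limma-trend called 1 positive MIKC* gene, and on the log2(FPKM + 0.1) scale 1 negative type I gene. Of the 11 genes of the ABCDE model 5 were called. *LcMADS95*, class A (LITCHI005352.m1.gene), had 87.3, 85.5 and 86.2 FPKM in F3, 26.6, 31.2 and 31.7 in F4, 113, 125 and 136 in M3 and 93.2, 82.9 and 73.1 in M4. It fell in female flowers, with an interaction of -1.10 ± 0.16 (SE, edgeR FDR 2.40e-05) that was not called under library-size scaling or on the log2 FPKM scale. *LcMADS50*, the class B gene of the PISTILLATA type (LITCHI011302.m1.gene), had 269, 272 and 275 FPKM in F3, 99.2, 107 and 116 in F4, 318, 297 and 334 in M3 and 413, 348 and 280 in M4, and only the F4 libraries were low, with an interaction of -1.63 ± 0.20 (SE, edgeR FDR 4.16e-06). *LcMADS65*, class C (LITCHI028933.m1.gene), had 82.4, 83.2 and 82.5 FPKM in F3, 84.6, 95.9 and 102 in F4, 92.4, 84.6 and 84.9 in M3 and 179, 176 and 204 in M4. It rose in male flowers, with an interaction of -1.06 ± 0.18 (SE, edgeR FDR 0.000113) that was lost under the same 3 settings as that of *LcMADS95*. *LcMADS51*, class D (LITCHI011705.m1.gene), annotated as AGL11, the ovule identity factor, rose in female and fell in male flowers, with 5.34, 6.34 and 4.53 FPKM in F3, 12.1, 12.3 and 11.8 in F4, 2.82, 3.25 and 2.49 in M3 and 0.459, 0.678 and 0.624 in M4 and an interaction of 3.25 ± 0.40 (SE, edgeR FDR 3.33e-06).

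The other class B genes, *LcMADS45* and *LcMADS75*, share the annotation DEFICIENS and took the male step in opposite directions. The first 180 bases of both coding sequences, which span the length of the MADS domain, are shown to set this pair side by side, 5′ to 3′. The bases that differ between them are in capitals. They come from the gene table supplied with the study, and 32 of 180 positions differ (82.2% identical).
LcMADS45: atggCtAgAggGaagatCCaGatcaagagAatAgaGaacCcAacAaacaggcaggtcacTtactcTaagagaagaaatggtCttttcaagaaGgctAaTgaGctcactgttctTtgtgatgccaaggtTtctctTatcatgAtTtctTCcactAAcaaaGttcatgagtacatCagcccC
LcMADS75: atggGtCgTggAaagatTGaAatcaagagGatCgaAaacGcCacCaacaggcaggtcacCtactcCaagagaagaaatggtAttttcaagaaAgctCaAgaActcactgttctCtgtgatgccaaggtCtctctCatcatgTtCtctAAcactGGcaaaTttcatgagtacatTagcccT
*LcMADS45* (LITCHI010203.m1.gene) had 33.2, 34 and 29.7 FPKM in F3, 23.8, 23 and 26.7 in F4, 18.1, 19.4 and 17.8 in M3 and 3.59, 3.06 and 1.56 in M4. It fell in male flowers by 2.64 log2 units, its F4 level was not called different from F3, and its interaction was 2.19 ± 0.28 (SE, edgeR FDR 5.59e-06). *LcMADS75* (LITCHI006530.m1.gene) had 161, 154 and 155 FPKM in F3, 167, 195 and 181 in F4, 214, 197 and 199 in M3 and 422, 386 and 331 in M4. It rose in male flowers by 1.01 log2 units, and its interaction of -0.85 ± 0.18 (SE, edgeR FDR 0.00152) did not reach 2-fold. The level of *LcMADS75* exceeded that of *LcMADS45* in each of the 12 libraries on the FPKM scale, which is per transcript length.

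**Figure D5:**
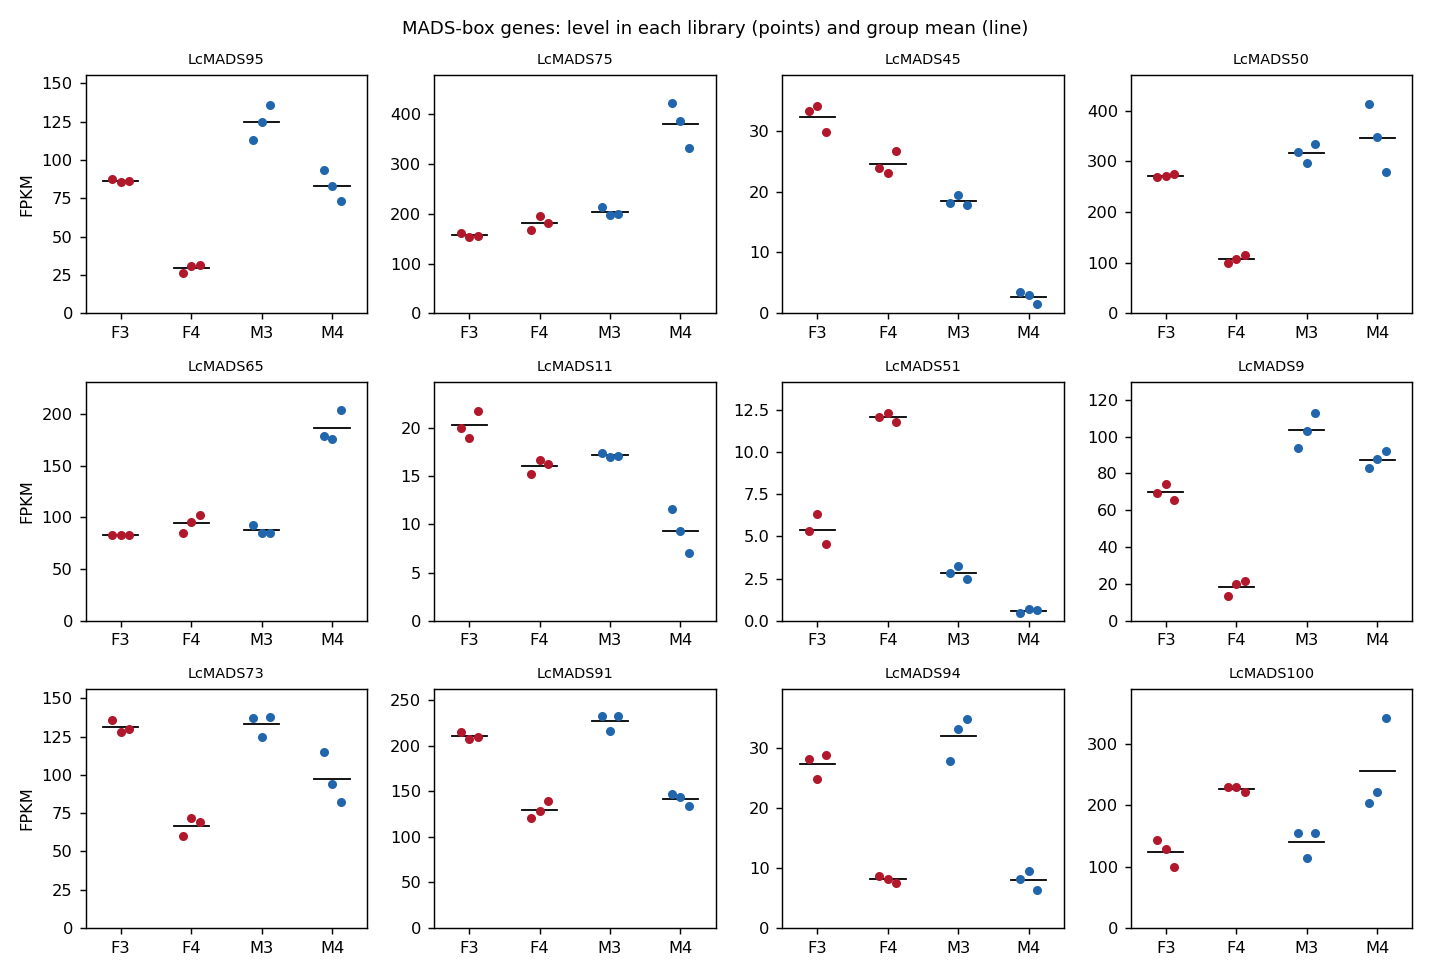
Points give the level in FPKM of 12 MADS-box genes in each library of F3, F4 (red), M3 and M4 (blue), with 3 libraries per group, and lines the group means; each panel has its own linear axis from 0. LcMADS95, LcMADS50 and LcMADS9 are lowest in F4, LcMADS45 and LcMADS51 are lowest in M4, and LcMADS65 and LcMADS75 are highest in M4.

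The remaining ABCDE genes were not called in the interaction. *LcMADS11*, annotated as AGL1, had an interaction of 0.39 ± 0.19 (SE, edgeR FDR 0.138), and the E-class genes *LcMADS73*, *LcMADS91*, *LcMADS94* and *LcMADS100* had -0.67 ± 0.15 (SE, edgeR FDR 0.00167), -0.18 ± 0.13 (SE, edgeR FDR 0.321), 0.10 ± 0.33 (SE, edgeR FDR 0.869) and -0.15 ± 0.27 (SE, edgeR FDR 0.755). *LcMADS94* (LITCHI005351.m1.gene) fell in both sexes, with log2 steps of -1.79 in female and -1.89 in male flowers, and *LcMADS100* is 1 of 2 entries of its locus. Outside the model *LcMADS9* (LITCHI025595.m1.gene), of the AGL6 type, had 69.1, 74.3 and 65.8 FPKM in F3, 13.4, 19.7 and 21.3 in F4, 94, 103 and 113 in M3 and 82.9, 87.8 and 91.9 in M4. It fell in female flowers alone, with an interaction of -1.86 ± 0.25 (SE, edgeR FDR 1.01e-05). *LcMADS72* (LITCHI023327.m1.gene), of the FRUITFULL type, fell in male flowers from 20.1 ± 0.993 FPKM (SD, n = 3) to 4.79 ± 0.498 FPKM (SD, n = 3) and had 19 ± 0.0977 FPKM (SD, n = 3) and 12.6 ± 0.892 FPKM (SD, n = 3) in F3 and F4, with an interaction of 1.32 ± 0.10 (SE, edgeR FDR 8.73e-09). *LcMADS42* (LITCHI008820.m1.gene), annotated as AGL18, rose in male flowers from 9.56 ± 0.939 FPKM (SD, n = 3) to 23.8 ± 5.66 FPKM (SD, n = 3), with an interaction of -1.61 ± 0.26 (SE, edgeR FDR 0.0001). The MIKC* gene *LcMADS47* (LITCHI010424.m1.gene), annotated as AGL104, which acts in maturing pollen of Arabidopsis, had 0.269, 0.155 and 0.121 FPKM in F3, 0.285, 0.587 and 0.484 in F4, 0.368, 0.103 and 0.178 in M3 and 3.41, 4.11 and 6 in M4 and an interaction of -3.22 ± 0.61 (SE, edgeR FDR 0.000473). *LcMADS93*, the other MIKC* gene called, had -1.04 ± 0.27 (SE, edgeR FDR 0.00639) and lost the call in 12 of 22 alternatives. The reference gene of the study, *LcActin* (LITCHI007623.m1.gene), had 237 ± 4.13 FPKM (SD, n = 3), 313 ± 20 FPKM (SD, n = 3), 245 ± 10.5 FPKM (SD, n = 3) and 350 ± 13.5 FPKM (SD, n = 3) in F3, F4, M3 and M4 and was not called, with an interaction of -0.27 ± 0.09 (SE, edgeR FDR 0.0299). *LcMADS42*, *LcMADS47* and *LcMADS72* were named after their values were seen.

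A list matched by annotation words for carpel and ovule, without MADS-box genes, had 6 of 41 tested genes called positive (14.6%, against 6.16% of all tested genes). The 6 became 3 without F3-3, M3-2, M4-2 or M4-3. On the negative side 1 was called (2.44% against 3.48%), and the median was 0.29. The words also matched factors with roles in other organs, such as those named below, so a call does not place a gene in carpel or ovule. *WOX1* (LITCHI023084.m1.gene), a homeobox factor of blade outgrowth, had 7.19, 6.43 and 7.02 FPKM in F3, 4.94, 4.64 and 5.08 in F4, 7.96, 10.4 and 10.4 in M3 and 0.336, 0.493 and 0.411 in M4. Only M4 was low, and the interaction was 3.86 ± 0.28 (SE, edgeR FDR 4.28e-09). *WOX4* (LITCHI010943.m1.gene), a factor of the vascular cambium, rose in female flowers, to 4.53 ± 0.16 FPKM (SD, n = 3) in F4 against 0.164 ± 0.06 FPKM (SD, n = 3) in M4, but the call was lost without F3-3, M3-2, M4-2 or M4-3. The YABBY gene LITCHI022829.m1.gene, a determinant of the outer face of lateral organs, had 80 ± 10 FPKM (SD, n = 3) in F4 and 19.6 ± 1.51 FPKM (SD, n = 3) in M4, with an interaction of 1.20 ± 0.24 (SE, edgeR FDR 0.000872). *BLH1* (LITCHI024352.m1.gene) fell in female flowers, with an interaction of -1.72 ± 0.35 (SE, edgeR FDR 0.000916). *WOX4* and the YABBY gene were named after their values were seen.

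Among families of transcription factors, bHLH genes were called positive in 14 of 94 tested genes (14.9%, against 6.16% of all tested genes). They were called negative in 5 (5.32% against 3.48%), or 3 without F3-3, F4-1, F4-2 or M3-1. *bHLH96* (LITCHI003914.m1.gene) rose in female and fell in male flowers, with 10.1, 11.6 and 8.11 FPKM in F3, 28.8, 29.4 and 23.4 in F4, 4.01, 4.95 and 4.7 in M3 and 0.321, 0.425 and 0.294 in M4 and an interaction of 5.00 ± 0.45 (SE, edgeR FDR 8.13e-08). MYB genes gave 12 positive (12.2%) and 9 negative (9.18%) calls among 98. NAC genes gave 7 (9.09%) and 6 (7.79%) among 77. The 7 became 4 or 5 with any 1 library left out, and 2 with the stricter filter. WRKY genes gave 2 (2.9%) and 5 (7.25%) among 69, and the 5 became 3 without F3-1, F3-3, F4-1, F4-2, M3-1 or M3-2. *MYB106* (LITCHI005214.m1.gene), a regulator of cuticle and conical cells in Arabidopsis, had 4.84, 6.65 and 5.8 FPKM in F3, 4.67, 5.65 and 5.13 in F4, 5.47, 6.59 and 4.84 in M3 and 0.71, 0.543 and 0.364 in M4. The M4 libraries alone were low, with an interaction of 3.07 ± 0.41 (SE, edgeR FDR 8.32e-06). *NAC73* (LITCHI020988.m1.gene), a factor of secondary walls in Arabidopsis, fell in male flowers from 5.66 ± 1.06 FPKM (SD, n = 3) to 0.436 ± 0.351 FPKM (SD, n = 3), and *WRKY74* (LITCHI003618.m1.gene) had 5.72 ± 0.939 FPKM (SD, n = 3) in F4 and 1.1 ± 0.286 FPKM (SD, n = 3) in M4. *bHLH30* (LITCHI029049.m1.gene) had a negative interaction of -2.64 ± 0.66 (SE, edgeR FDR 0.0047), lost without F3-1, F3-3, F4-1, F4-2, M3-1, M3-2 or M4-3.

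Clock genes started from unequal levels in the buds. At stage 3, 5 of 31 tested were called lower in female flowers (16.1%, against 0.413% of all tested genes) and 0 higher. At stage 4, 5 were called lower and at stage 5, 8 (7.4% and 11.6% of all tested genes), with 0 higher at either. In the interaction 3 were called positive (9.68% against 6.16%), or 1 without F4-1, M3-2, M3-3 or M4-1, and 1 negative (3.23% against 3.48%). The cause was not tested. The clock repressor *PRR5* (LITCHI026785.m1.gene) had 4.87, 5 and 3.69 FPKM in F3, 10.5, 9.21 and 7.98 in F4, 15.6, 21.1 and 21.6 in M3 and 9.84, 10.8 and 14.4 in M4, so F3 lay below M3 and the stage 4 groups lay closer together, and its interaction was 1.61 ± 0.32 (SE, edgeR FDR 0.000633). The morning factor *LHY* (LITCHI026770.m2.gene, 1 of 2 entries of its locus) had 5.44, 6.54 and 5.81 FPKM in F3, 5.35, 10.7 and 11.6 in F4, 64.6, 66.9 and 65.2 in M3 and 49, 41 and 42.7 in M4. All F3 and F4 values were below those of M3 and M4, and its interaction of 1.05 ± 0.39 (SE, edgeR FDR 0.0487) was not called. *PRR5* and *LHY* were named after their values were seen.

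Some genes with a large fitted interaction had few or no counts in some group. A beta-galactosidase gene (LITCHI001880.m1.gene) had 2790 counts over the F3 libraries, 1203 over F4, 2357 over M3 and 0 over M4, so M4 was at least 664-fold lower than M3 against a limit of 3 counts over the group. The locus has 2 entries, and with both summed the interaction was 2.23 (edgeR FDR 5.22e-06). The fasciclin-like arabinogalactan protein *FLA14* (LITCHI031698.m1.gene), a cell surface protein known from pollen in Arabidopsis, had 20, 119, 0 and 1319 counts over F3, F4, M3 and M4, at least 520-fold higher in M4 than in M3. The gene for an HLS1-type acetyltransferase (LITCHI025186.m1.gene), which acts in differential growth, rose in female flowers, with 0, 0.0477 and 0.0772 FPKM in F3, 8.97, 9.15 and 9.95 in F4, 0.257, 0 and 0.025 in M3 and 0.236, 0.365 and 0.77 in M4, but its interaction of 5.11 ± 1.31 (SE, edgeR FDR 0.00691) was not called in 10 of 22 alternatives. The gene *ILITYHIA* (LITCHI003508.m1.gene), 1 of 2 entries of its locus, had a fitted interaction of -14.43 from levels below 3 FPKM in all libraries, and with both entries summed it was 0.29 and not called.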

How the data were processed

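Total RNA of whole litchi flowers was sequenced as paired-end reads on an Illumina platform. According to the methods the authors trimmed reads with Trimmomatic and removed ribosomal reads, and the submitters' processing notes name HISAT2 2.0.4 and StringTie. The methods name Cufflinks for the expression values, and which tool made the counts is not given in the sources used here. The genome build is not given in the sources used here, no annotation with positions was used, and genes carry the identifiers of the file. Raw counts and the authors' FPKM values were deposited for each gene, beside 75 columns of the authors' own comparisons (fold change, FDR and call), which were not used. Gene names are the Swiss-Prot matches in that table.

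The count model was that of edgeR 4.0.16 under R 4.3.3 (filterByExpr, TMM, glmQLFit, glmQLFTest, 10 groups, all 30 libraries sharing the spread). The filter removed 9380 of 37234 genes. The interaction (F4 - F3) - (M4 - M3) and its component contrasts were called at a Benjamini-Hochberg FDR below 0.01 and at least 2-fold, with SE taken from the F statistic. The 12 libraries held 30370796 to 38075360 counts, which sets the precision of low values. FPKM served for display and for limma-trend 3.58.1 on log2(FPKM + 1) or log2(FPKM + 0.1). The fit was tested on simulated data.

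The members, gene lists and named genes were chosen with earlier results of these data known. Named by rule were, among called genes, the 8 with the largest value in each direction (single entry, name, at least 1 CPM in every group and 10 in the highest), the 3 without the lower limit, the 4 with the strongest opposite steps each way, the largest of each keyword list with at least 10 CPM in the highest group, the 11 ABCDE genes and *LcActin*, 77 genes in all. A gene that the rule names is not reported here. Lists were matched by words of the annotation. The comparison at stage 5 was added after seeing the data. Alternatives were DESeq2 1.42.0, other scalings and filters, summed entries per locus, the 12 libraries alone, a replicate block and leaving out each library.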

Additional observations from a re-analysis of the deposited data

Results flagged for a closer look

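The effect of opening was tested for a difference between female and male flowers, so each of the 2685 called genes is a result that differs between the sexes, by the test of the interaction itself. The 8 genes below stand out because both steps were called and they ran in opposite directions. In female flowers a rise met a fall in male flowers for *ZHD4* (LITCHI007324.m1.gene, interaction 4.54), *ABCG14* (LITCHI017852.m1.gene, 3.75), *PIN1c* (LITCHI008622.m1.gene, 4.39) and *RNS1* (LITCHI002860.m1.gene, 4.60). A fall in female flowers met a rise in male flowers for the exopolygalacturonase LITCHI014448.m1.gene (-5.35), *CSLD1* (LITCHI015089.m1.gene, -4.61), the polygalacturonase LITCHI004398.m1.gene (-8.46) and *MYB73* (LITCHI001536.m1.gene, -4.43). All values are differences of log2 steps, and the interactions of these 8 genes were called in each of the 22 alternatives, while the calls of the single steps were not followed there.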

How the results depend on the processing

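The interaction was called for 2156 genes (stricter filter) to 3465 genes (DESeq2) under the 10 alternatives that kept all libraries, and for 2086 to 2655 with 1 library left out. The female step had 2311 to 4012 and the male step 3788 to 6308 over all alternatives. The contrast of the sexes at stage 3 moved most, to 599 genes with DESeq2 and 335 with only the 12 libraries against 212, and lay between 114 and 246 with 1 library left out. The contrast at stage 4 had 3104 genes under the stricter filter against 4721. Genes that fell in female flowers only numbered 419 with DESeq2 and 180 on the log2(FPKM + 1) scale against 276, and 183 to 288 with 1 library left out. Genes that rose in female flowers only numbered 214 and 192 on the log2 FPKM scale with pseudocounts of 0.1 and 1, against 122. Library-size scaling moved the median interaction to 0.15 and the share of positive calls from 63.9% to 75%. It turned the median of the pollen tube, aquaporin and clock lists from -0.13, -0.11 and -0.13 to 0.02, 0.04 and 0.02.

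Of 133 named genes that were called, 101 kept the call and the direction in each of the 22 alternatives. The direction turned for *ILITYHIA* (LITCHI003508.m1.gene), at 0.29 with entries summed per locus. Among genes that were not called, *LcMADS100* turned to 0.01 with library-size scaling, to 0.05 with limma-trend at either pseudocount and to 0.08 without M4-3 (-0.35 to 0.08 with 1 library left out), *LcMADS94* to 0.00 without M3-3 and -0.09 without M4-3 (-0.09 to 0.20), and *ANXUR1* (LITCHI003619.m1.gene) to 1.57 without F3-1 (-1.51 to 1.57). The causes were not tested. Libraries of the same number were treated as unpaired. Whether they share a tree or a day is not given in the labels and was not tested. Their deviations from the group means correlated at -0.059 to 0.057 over 18 pairs, and 6 of 12 libraries correlated best with their own number. With the replicate block 2592 genes were called in the interaction, 3291 in the female and 5580 in the male step. Low counts in F3 or M3 limit the fold changes of genes near 0 there, and groups of 3 libraries allow no test for single outlying values.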

Other observations

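Lists of scent and pigment genes were called at about the share of all tested genes, 9.09% of terpene synthase and 9.88% of phenylpropanoid and flavonoid genes against 9.64%. Of 44 tested terpene synthase genes 3 were called positive and 1 negative, with a median interaction of 0.24. The 3 became 0 without F4-1 and 1 without M3-1, M3-3 or M4-3, and limma-trend with a pseudocount of 1 called 0. *Alpha-farnesene synthase* (LITCHI029350.m1.gene), which makes a volatile of flowers and fruit, rose in both sexes, with 0.282, 0.258 and 0.305 FPKM in F3, 10.3, 7.49 and 5.3 in F4, 2.61, 2.31 and 1.79 in M3 and 19.5, 17.6 and 16.9 in M4, and its interaction of 1.58 ± 0.37 (SE, edgeR FDR 0.00278) was lost without F4-1 or M3-1. Of 81 tested phenylpropanoid and flavonoid genes 5 were positive and 3 negative. A pair annotated as flavonoid 3'-monooxygenase, an enzyme that hydroxylates the B ring of flavonoids, moved in opposite directions. LITCHI009145.m1.gene rose in female and fell in male flowers, with 4.09, 4.88 and 3.86 FPKM in F3, 12.1, 11.5 and 9.91 in F4, 3.82, 4.8 and 4.29 in M3 and 0.8, 0.504 and 0.505 in M4 and an interaction of 4.06 ± 0.39 (SE, edgeR FDR 1.84e-07). LITCHI002550.m1.gene rose in male flowers, with 1.94, 1.68 and 2.51 FPKM in F3, 3.11, 3.43 and 4.21 in F4, 1.19, 2.11 and 2.6 in M3 and 19.4, 14.9 and 11.2 in M4 and an interaction of -2.28 ± 0.41 (SE, edgeR FDR 0.000263).

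Lists of protein turnover, stress and the cytoskeleton also lay near that share, with 9.41% of autophagy and cell death protease genes, 8.57% of heat shock genes and 11.5% of actin cytoskeleton genes called. Of 85 tested autophagy and cell death protease genes 3 were positive and 5 negative (3 without F3-1, F3-3 or M3-1, and 2 without F4-1). The senescence protease *SAG12* (LITCHI029047.m1.gene) fell in female flowers from 7.6 ± 1.23 FPKM (SD, n = 3) to 0.273 ± 0.0682 FPKM (SD, n = 3) and had 9.95 ± 2.48 FPKM (SD, n = 3) in M3 and 5.48 ± 0.926 FPKM (SD, n = 3) in M4, with an interaction of -4.05 ± 1.05 (SE, edgeR FDR 0.00616) that was lost in 9 of 22 alternatives. Of 70 tested heat shock genes 4 were positive (2 without F4-1) and 2 negative, with the small chaperones LITCHI027609.m1.gene at 1.71 ± 0.30 (SE, edgeR FDR 0.000224) and LITCHI029574.m1.gene at -2.25 ± 0.28 (SE, edgeR FDR 4.58e-06). Of 52 tested genes of the actin cytoskeleton 3 were positive (1 without F3-1, F4-1 or M4-2) and 3 negative (6 without M4-3). *Formin-like protein 1* (LITCHI015682.m1.gene), which nucleates actin filaments, had 33.5, 40.4 and 33.1 FPKM in F3, 34.5, 32.1 and 30.1 in F4, 29.2, 26.4 and 21.8 in M3 and 5.88, 5.19 and 3.6 in M4 and was low in M4 alone, with an interaction of 2.10 ± 0.29 (SE, edgeR FDR 1.22e-05). *Gibberellin-regulated protein 14* (LITCHI017978.m1.gene), a small secreted peptide, had 106 ± 7.45 FPKM (SD, n = 3) in F4 and 30.8 ± 3.57 FPKM (SD, n = 3) in M4.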
